A study of Rattus norvegicus with 9 samples.

Results

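The genes described here encode the nuclear subunits of respiratory complexes II, III, IV and V and cytochrome c. They were taken by symbol from a table of liver read counts: Sdha to Sdhd, Cyc1, Cycs, and every symbol that starts with Uqcr or Atp5 or with Cox4 to Cox8 followed by a letter or digit. Of 49 such symbols among 23479 in the table, 46 had at least 10 counts in all libraries together. By symbol these were 4 genes of complex II, 9 of complex III, Cycs, 14 of complex IV and 18 of complex V. Atp5s, Atp5sl and Atp5hl1 are counted with complex V by symbol only and do not encode a counted subunit. Cox7a2l, which helps join complexes III and IV into supercomplexes, is counted with complex IV by symbol. The liver RNA came from Wistar males, rats of an outbred stock, with 5 young animals of 6 months (young 1 to 5) and 4 old animals of 24 months (old 1 to 4). Per the series design each library is a separate animal, and the labels give no treatment, diet, allele or litter.

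In the inner mitochondrial membrane, complex II passes electrons from succinate to ubiquinone, complex III passes them from ubiquinol to cytochrome c, and complex IV passes them from cytochrome c to oxygen. Complexes III and IV pump protons, and complex V, the ATP synthase, lets protons flow back and makes ATP. Liver uses this chain to power glucose and urea synthesis. Some subunits of complexes III, IV and V are mitochondrially encoded and were not analysed here.

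Libraries held 18942191 to 25215805 counts in the young group and 18586798 to 32882704 in the old group. Values are given as CPM, with library sizes corrected by TMM factors, and where a library had 0 counts of a gene the limit was 3 counts, or 0.106 to 0.173 CPM. That floor and every counting interval cover counting error only. The 12 hepatocyte markers summed to 181180 to 201900 CPM in young livers and to 217700 to 327890 CPM in old ones, so the defining markers of the labelled tissue were present. Features of single libraries touch the results. All counts of old 1 were even numbers. Old 3 had 192 CPM of 4 neutrophil and monocyte markers, where the rest had 6.68 to 16.2 CPM, and 502 CPM of 5 Kupffer cell markers, against 46.8 to 269 CPM. Young 2 to 5 held 120 to 150 CPM of 26 heart muscle markers, against 15.1 CPM in young 1 and 6.00 to 9.55 CPM in the old libraries.

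No gene of complexes II to V differed between old and young livers past the threshold of an adjusted p of 0.05. Of the 46 genes, 40 passed the low-count filter and were tested with edgeR's quasi-likelihood test. Of these 0 were called higher and 0 lower, while among all 12778 genes tested 0.657% were called higher and 0.344% lower. Before adjustment 3 of the 40 (7.5%) had p below 0.05, namely Cox6a2, Atp5sl and Atp5g1, against 15.9% of all genes. DESeq2 called 1 gene, Cox6a2, lower. Sdha was the only tested gene of the 40 whose groups did not overlap, with old below young, or 2.5% against 3.12% of all genes, and 0 had old above young without overlap, against 3.4%.

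The median log2 fold change of old over young was 0.09 over the 40 genes and 0.01 over all genes, and 29 of the 40 were above 0. Without old 1 the median of the 40 was -0.03 and 14 were above 0, and without old 3 it was 0.21 and 35 were above 0. It was 0.15 without old 4, 0.06 without young 1, and 0.31 without old 3 and old 4 together. With library totals as the only scaling the median of all genes moved to -0.17 and that of the 40 to -0.10, with 14 above 0. The sign of the median therefore turned with 1 library and with the scaling. Of the 40, 39 averaged 1 CPM or more, and for these the 95% intervals of the log2 fold change reached from 0.22 to 0.49 to either side of the estimate. Of these 39 intervals 37 held 0, and the exceptions were Atp5g1 and Atp5sl.

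**Figure D1:**
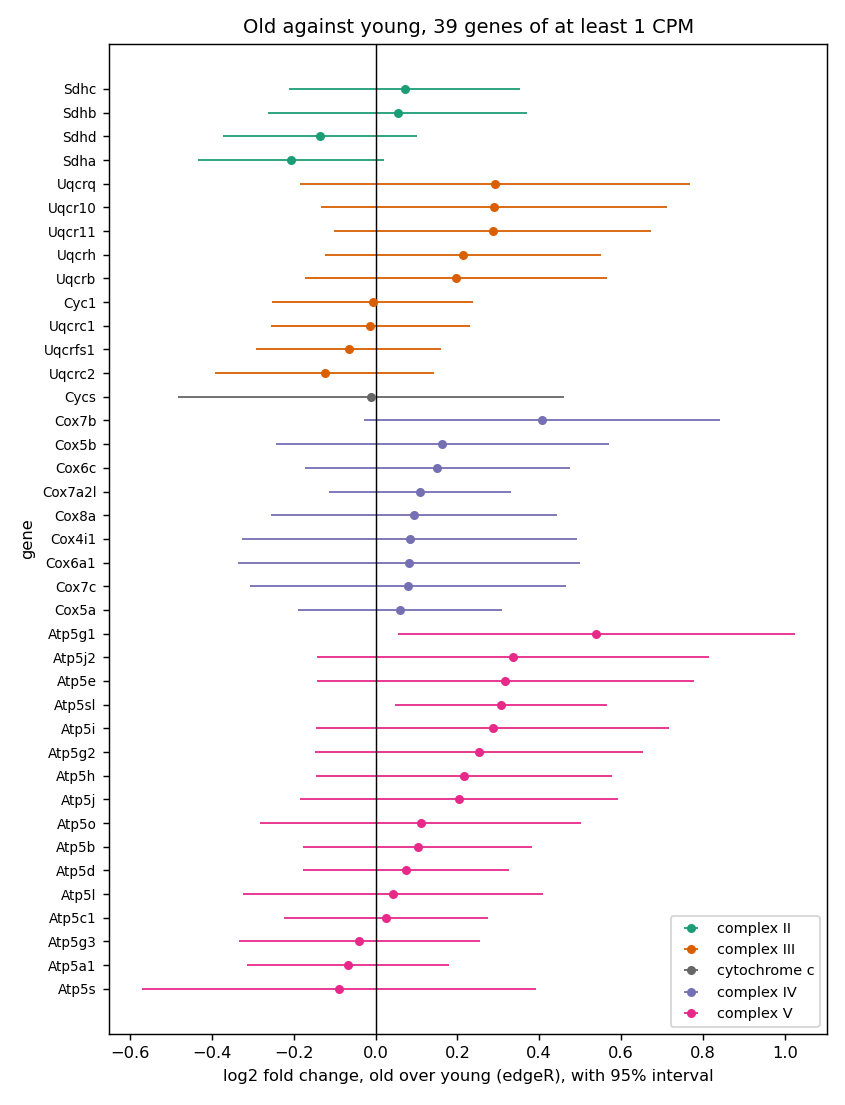
Log2 fold change of old over young (x axis, edgeR, points) with its 95% interval (lines) for the 39 tested genes of at least 1 CPM (y axis), coloured by complex, 5 young against 4 old livers. The intervals of Atp5g1 and Atp5sl lie above 0 and the other 37 hold 0.

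The clearest pattern was the spread among old animals. The coefficient of variation of these genes had a median of 6.77% among young and 28.5% among old livers, while over all genes tested it was 13.2% and 20.5%. The SD was larger among old than among young livers for 39 of the 40 genes (97.5%), against 72.3% of all genes. Of the 39 genes of at least 1 CPM, 32 were highest in old 1 (82.1%), where 24.3% of all genes of that level had their highest value, and 33 were lowest in old 3 (84.6%), against 14.1% of all genes. Averaged over the 39 genes, the log2 CPM lay between 6.61 and 6.78 in the young libraries, and the values of old 1 to 4 were 7.15, 6.83, 6.42 and 6.65. The 5 erythroid markers summed to 77.5 to 437 CPM among young and 566 to 2343 CPM in old livers, highest in old 3. In bulk tissue fewer cells of a type and less RNA per cell cannot be told apart. Old 1 also had the lowest sum of 5 endothelial markers (118 CPM, against 164 to 249.6 CPM) and of the Kupffer cell markers (46.8 CPM). The same held for the sum of 4 stellate markers (61.4 CPM, against 69.7 to 139 CPM). Single markers differed: Pecam1, Stab2, Lyve1, Kdr and Lrat were lowest in old 1, while endothelial Clec4g was highest there (38.1 CPM). The stellate markers Des, Col1a1 and Reln were lowest in other libraries. The part of the markers of other cell types in old 1 and old 3, or of the even counts of old 1, in these levels was not tested. With the counts of old 1 divided by 2 the median of the 40 genes was 0.09. Library scaling removes such a common factor, so this fit cannot show whether the even counts matter.

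**Figure D2:**
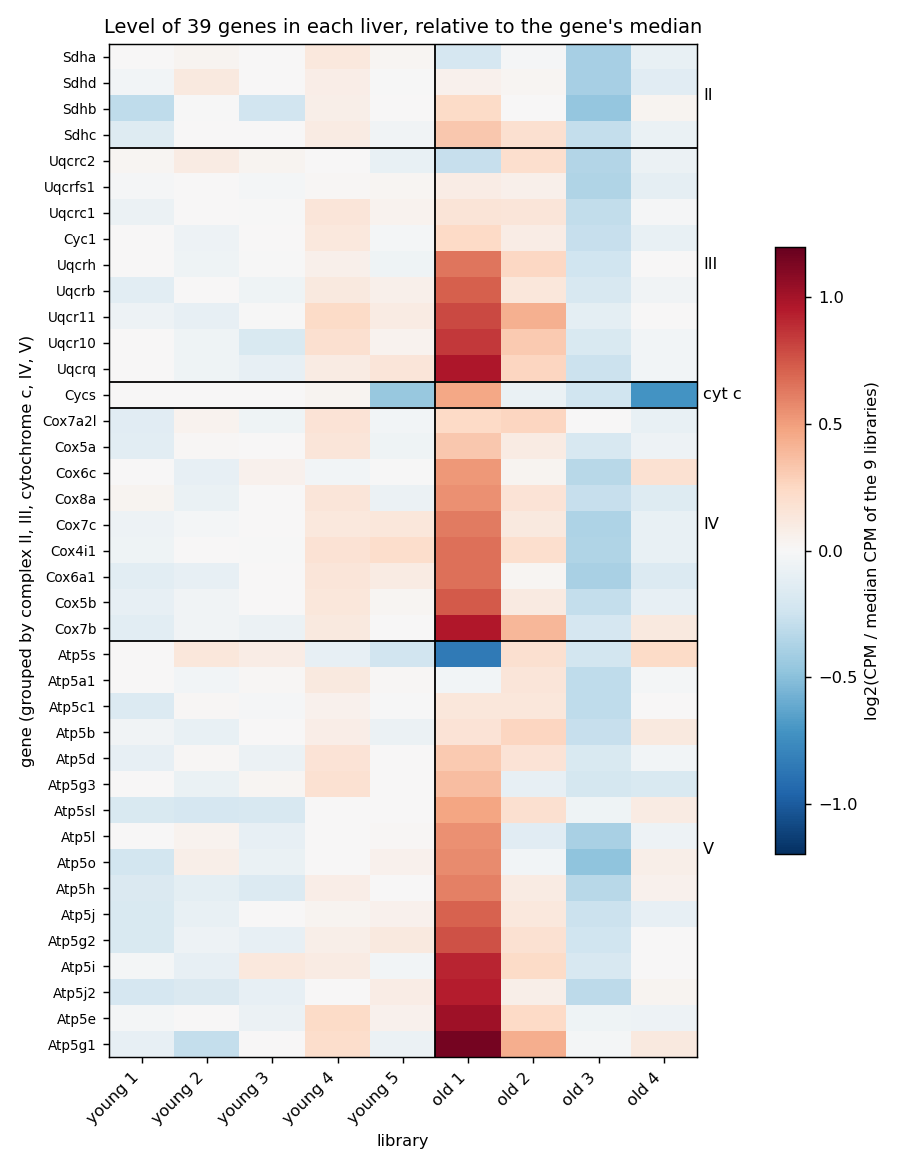
Level of each of the 39 genes (y axis, grouped by complex and ordered within it by the ratio in old 1) in each library (x axis), as log2 of its CPM over its median CPM in the 9 libraries (colour). Old 1 is the highest library for 32 genes and old 3 the lowest for 33.

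Within old 1 the genes were not raised alike. The level in old 1 was divided by the median of the other 8 libraries, and 18 of the 39 genes were over 1.5 times that median (46.2%, against 11.5% of all genes of at least 1 CPM), 9 lay between 1.2 and 1.5 times and 12 lay under 1.2 times. The 18 genes included Atp5g1 at 2.24 times, Atp5e at 2.04, Atp5j2 at 1.98, Uqcrq at 1.98, Cox7b at 1.97, Atp5i at 1.90 and Uqcr10 at 1.82, all of which encode small subunits. The 12 genes were Sdha at 0.866 times, Uqcrc2 at 0.819, Atp5a1 at 0.973, Sdhd, Uqcrfs1, Atp5c1, Uqcrc1, Atp5b, Sdhb, Cyc1, Cox7a2l and Atp5s. Most of these encode the large catalytic or core subunits. Grouping them by subunit size was done after the values were seen, and transcript lengths were not available, so a relation to length was not tested. The ratios in old 3 spanned less, with 35 of the 39 under 0.9 times the median of the other libraries (89.7%, against 30.8% of all genes), from Atp5o at 0.704 to Cox7a2l at 0.997 times.

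Summed over its genes, complex II averaged 769 ± 38.8 CPM over the 5 young and 721 ± 94.7 CPM over the 4 old livers (mean ± SD). Complex III lay at 978 ± 33.8 and 1031 ± 211 CPM, complex IV at 1177 ± 68.6 and 1286 ± 372 CPM, and complex V at 3362 ± 146 and 3573 ± 612 CPM. In each complex the difference of means was smaller than the SD among old livers. All 46 genes together took 6037 to 6745 CPM in the young libraries, and 8135, 6981, 5127 and 6233 CPM in old 1 to 4. As shares of library totals, without TMM, they took 6365 to 7090 CPM in young livers, against 7014, 6529, 4763 and 6331 CPM in old 1 to 4. On that scale old 1 was inside the young range, old 4 was just below it and old 3 was below it on both scales. By complex, old 1 stayed above all young livers on that scale for complex III (1109 CPM, against 1009 to 1086 CPM) and complex IV (1553 CPM, against 1167 to 1339 CPM).

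**Figure D3:**
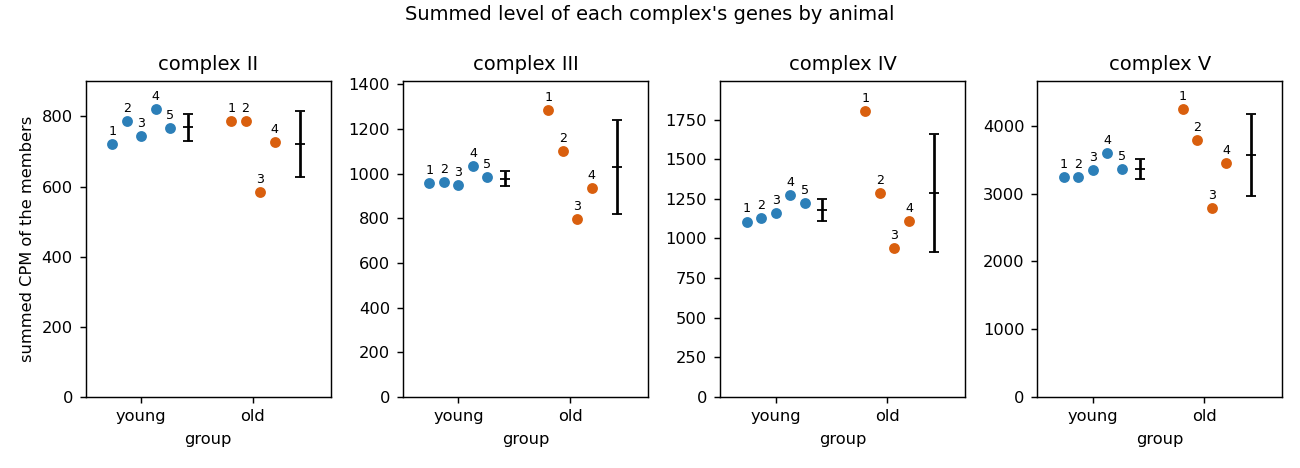
Summed CPM (y axis) of the members of complexes II, III, IV and V in each animal (points, numbered by replicate) for the young and old groups (x axis), with mean and SD as black bars. The young animals lie close together, and old 1 and old 3 lie at opposite ends for complexes III, IV and V.

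Complex II has 4 subunits, all nuclear. Sdha, the flavoprotein that oxidises succinate, lay at 329, 336, 328, 359 and 333 CPM in young 1 to 5 and at 285, 326, 250 and 308 CPM in old 1 to 4. Every old liver was below every young one, with old 2 close to the lowest young value, and old 1 was not raised. The log2 fold change was -0.21 ± 0.10 (SE; 95% interval -0.43 to 0.02; edgeR adjusted p = 0.363). On leaving out single libraries Sdha stayed between -0.26 and -0.14 and was never past the threshold. Sdhd, a membrane anchor subunit, lay at 152, 168.5, 155, 163 and 154 CPM in the young livers, against 160, 158, 117 and 141 CPM in old livers. Old 1 and old 2 were inside the young range and old 3 and old 4 below it (log2 -0.14 ± 0.11, adjusted p = 0.553). Sdhb, the iron-sulphur subunit, lay at 112 to 145 CPM among young and 99.9 to 161 CPM in old livers, and Sdhc, the other anchor, at 130 to 155 and 118 to 180 CPM. Their log2 fold changes were 0.05 and 0.07. With library totals only, Sdha, Sdhd, Uqcrfs1 and Atp5a1 were lower in every old than in every young liver, or 10% of the 40 genes against 10.3% of all genes on that scale, and 0 were higher without overlap, against 1.35%. None of them passed there (adjusted p = 0.102 for Sdha and 0.127 for Sdhd).

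No gene of complex III passed the test. Uqcrc2, a core subunit and the complex III gene with the highest CPM over the 9 libraries together, lay at 186, 197, 187, 183 and 172 CPM in the young livers, against 151, 210, 143 and 174 CPM in old livers. Old 1 and old 3 were below all young livers and old 2 was above them (log2 -0.12 ± 0.12, adjusted p = 0.636). Uqcrc1, the other core subunit, had a log2 fold change of -0.01, Cyc1, the cytochrome that hands electrons to cytochrome c, one of -0.01, and Uqcrfs1, the Rieske iron-sulphur protein, one of -0.07. Uqcrfs1 was the steadiest of these in young livers, at 127 to 131 CPM, and lay at 138, 135, 101 and 120 CPM in old 1 to 4. Uqcr11, a small subunit, lay at 30.1, 29.3, 31.4, 36.8 and 33.6 CPM in the young livers, against 54.6, 42.2, 29.0 and 31.4 CPM in old livers. Old 1 and old 2 were above the young range, old 4 was inside it and old 3 just below it (log2 0.29 ± 0.17, adjusted p = 0.450, and 0.08 without old 1). Uqcr10 lay at 85.0, 81.9, 74.8, 97.2 and 87.2 CPM in the young livers, against 153, 106, 74.7 and 82.9 CPM in old livers, with the same order of old animals at the top (log2 0.29 ± 0.19, adjusted p = 0.485, and 0.04 without old 1). Uqcrq, Uqcrh, the hinge protein, and Uqcrb had log2 fold changes of 0.29, 0.21 and 0.20, and their highest value was in old 1 at 306, 80.6 and 77.7 CPM. Without old 1 these estimates were -0.02, 0.03 and -0.03. In the old group Uqcrq averaged more CPM than Uqcrc2 (194 against 169.8), but only old 1 had this order. The log2 ratio of Uqcrq to Uqcrc2 was 1.02 in old 1 and -0.165, -0.133 and -0.191 in old 2 to 4.

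Cycs, which encodes the cytochrome c of somatic tissues, lay at 9.45, 9.43, 9.48, 9.67 and 6.87 CPM in the young livers, against 13.0, 8.92, 7.98 and 5.74 CPM in old livers. The old values spanned the young ones on both sides (log2 -0.01 ± 0.21, adjusted p = 0.984). Its promoter is among those with NRF1 letters described with the sequences.

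Complex IV has nuclear subunits with paralogs that differ between tissues, and these divided into genes that every liver used and genes near the floor. Cox4i1, the widely expressed form of subunit IV, lay at 248, 257, 256, 290 and 298 CPM in the young livers, against 406, 295, 200 and 242 CPM in old livers. Old 1 was above and old 3 and old 4 below all young livers (log2 0.08 ± 0.18, adjusted p = 0.846). This estimate was -0.14 without old 1 and -0.11 with library totals only. Its paralog Cox4i2, known from lung and from low oxygen, had 2, 3, 3, 1 and 4 counts in young 1 to 5 and 8, 1, 1 and 1 in old 1 to 4.

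Cox6a1, the form of subunit VIa found in liver, lay at 153, 155, 166, 184 and 178 CPM in the young livers, against 262, 169, 127 and 149 CPM in old livers (log2 0.08 ± 0.19, adjusted p = 0.854). Cox8a, the liver form of subunit VIII, lay at 139, 128, 135, 150 and 129 CPM in the young livers, against 198, 151, 112 and 121 CPM in old livers (log2 0.09 ± 0.16, adjusted p = 0.794). In both genes old 1 was highest and old 3 lowest, and both estimates were below 0 without old 1 and with library totals only. Cox7b had the largest estimate of the abundant complex IV genes. It lay at 94.8, 101, 98.8, 112 and 104 CPM in the young livers, against 201, 137, 90.2 and 112 CPM in old livers, so that old 1 and old 2 were above the young range, old 4 was at its top and old 3 below it (log2 0.41 ± 0.20, 95% interval -0.03 to 0.84, adjusted p = 0.352). Without old 1 it was 0.15. Cox7a2l, which helps join complexes III and IV into supercomplexes, lay at 44.4, 50.1, 47.0, 54.5 and 47.7 CPM in the young livers, against 57.5, 58.1, 48.7 and 45.9 CPM in old livers (log2 0.11 ± 0.10, adjusted p = 0.616, and -0.07 with library totals only). Of the 39 genes it had the highest ratio in old 3. Cox5a, Cox5b, Cox6c and Cox7c had log2 fold changes of 0.06 to 0.16, and of -0.14 to -0.01 without old 1.

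Cox6a2 and Cox8b, the heart and muscle forms of subunits VIa and VIII, were found in 4 of the 5 young livers and almost nowhere else. Cox6a2 had 0, 23, 21, 26 and 26 counts in young 1 to 5 and 0, 1, 0 and 0 in old 1 to 4, or 0.854 to 1.33 CPM in young 2 to 5. Cox8b had 0, 9, 6, 13 and 16 counts in young and 0, 1, 0 and 0 in old livers, or 0.283 to 0.821 CPM in young 2 to 5. The groups overlapped in both genes, because young 1 lay with the old livers at 0 counts. Over the pooled counts the young group was 77.5 times the old for Cox6a2 (96 counts against 1, exact 95% interval 13.6 to 3091) and 35.5 times for Cox8b (44 against 1, 6.05 to 1434). These exact intervals cover counting error only and not the spread among animals. The fitted log2 fold change of Cox6a2 was -5.75 ± 1.28, and it missed the threshold (edgeR adjusted p = 0.0683). It passed without young 1 (adjusted p = 0.00298), with library totals only (0.0439) and by DESeq2 (0.00116), and it was 0.162 without old 1. Cox8b was too low for the filter, and without the filter its adjusted p was 0.122.

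The same 4 young libraries held the heart muscle markers. Of 26 such markers, 9 had counts in each of young 2 to 5 and 0 counts in young 1 and all old libraries, among them Myh6, a heart myosin, and Actc1, cardiac actin. Actc1 lay at 40.3 to 52.05 CPM and Myh7 at 12.5 to 14.9 CPM in young 2 to 5, and both were at 0 counts elsewhere. Of the 20 markers tested, 4 were lower in old livers (Actn2, Mb, Myom2 and Tnnt2) and 0 higher. Cox6a2 came to 0.642% to 0.979% of the summed heart markers in young 2 to 5, and Cox8b to 0.235% to 0.602%. In those libraries Cox6a1 lay at 155 to 184 CPM, against 153 CPM in young 1. Young 1, whose heart marker sum came mostly from Ryr2 (7.05 CPM) and Actn2 (5.72 CPM), had 0 counts of both genes, as had old 1, 3 and 4. The part of the heart transcripts in the difference of Cox6a2 and Cox8b between the groups was not tested.

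**Figure D4:**
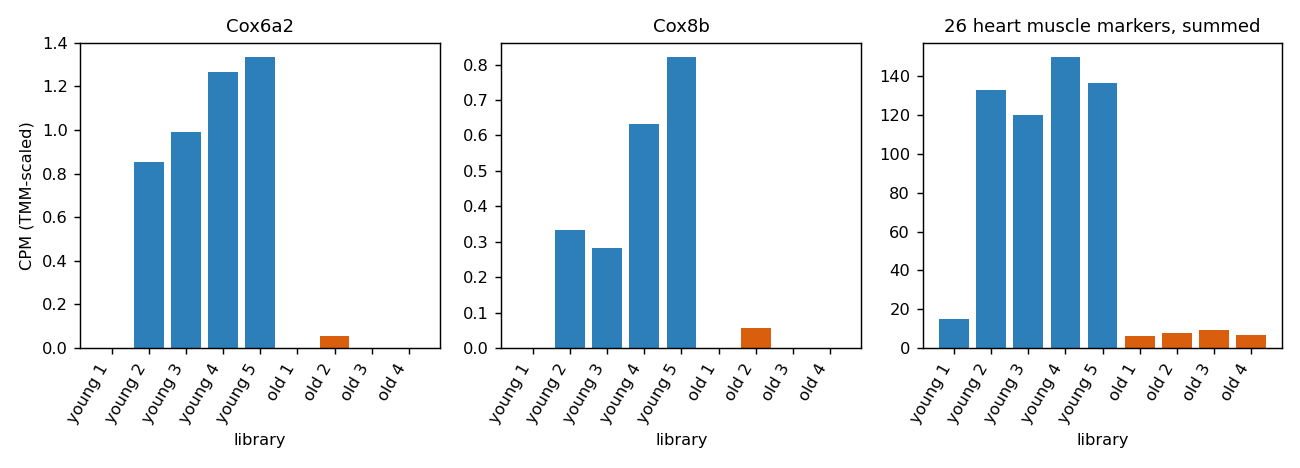
CPM (y axes) of Cox6a2, of Cox8b and of 26 summed heart muscle markers in each library (x axes; blue young, orange old). All of them are high in young 2 to 5 and near the floor or low in young 1 and old 1 to 4.

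Promoters of the liver form Cox8a and of the muscle forms Cox8b and Cox6a2 are shown because these paralogs had different patterns in these livers. They are RefSeq sequences of the GRCr8 assembly, 5′ to 3′, from 250 bases before the annotated start to 50 after it. Capitals mark matches on either strand to CCGGAAG (ETS factors such as GABPA), AAGGTCA (oestrogen-related receptors) or GCGCATGC (NRF1), 3 motifs known from genes of the respiratory chain.

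Cox8a, chr1:213833574-213833873, minus strand: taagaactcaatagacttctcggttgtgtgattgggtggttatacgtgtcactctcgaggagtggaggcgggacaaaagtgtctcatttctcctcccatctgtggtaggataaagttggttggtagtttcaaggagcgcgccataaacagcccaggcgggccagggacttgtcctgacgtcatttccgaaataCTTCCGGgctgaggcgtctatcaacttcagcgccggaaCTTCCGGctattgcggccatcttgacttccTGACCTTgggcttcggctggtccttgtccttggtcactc

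Cox8b, chr1:205408224-205408523, minus strand: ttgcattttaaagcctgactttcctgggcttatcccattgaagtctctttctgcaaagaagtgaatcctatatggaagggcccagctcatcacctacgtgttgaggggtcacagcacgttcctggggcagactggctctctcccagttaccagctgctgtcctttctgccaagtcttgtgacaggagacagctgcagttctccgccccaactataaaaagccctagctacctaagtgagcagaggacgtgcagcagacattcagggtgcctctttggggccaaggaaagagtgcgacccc

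Cox6a2, chr1:192219667-192219966, minus strand: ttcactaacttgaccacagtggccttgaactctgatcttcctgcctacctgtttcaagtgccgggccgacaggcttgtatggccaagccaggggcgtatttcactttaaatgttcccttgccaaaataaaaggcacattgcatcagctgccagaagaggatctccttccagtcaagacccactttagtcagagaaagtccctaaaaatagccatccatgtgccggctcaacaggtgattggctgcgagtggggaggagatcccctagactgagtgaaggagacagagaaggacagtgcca

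Cox8a held 2 ETS matches and 1 receptor match, and neither Cox8b nor Cox6a2 held any of the 3 sets of letters in this window. All 46 genes were matched to RefSeq, 29 by symbol and 17 by synonym, and 37 had a promoter in the table. Of these 37, 12 held the ETS letters (32.4%, against 11.2% of 19005 protein-coding genes), 7 the NRF1 letters (18.9% against 3.23%) and 7 the receptor letters (18.9% against 3.7%), and 18 held at least 1 of the 3 (48.6% against 17.2%). The letters can overlap, as in Atp5g2, where both NRF1 matches share bases. The median GC content was 56.0% in these promoters and 55.3% in all protein-coding ones. NRF1 letters were found in 0 of 11 complex IV promoters and 4 of 15 complex V promoters. A match of letters is a description of the sequence and not a measured binding site.

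Complex V joins a catalytic head to a ring of c subunits in the membrane. Atp5b, the catalytic beta subunit and the gene with the highest CPM of all those described, lay at 1196, 1162, 1235, 1303 and 1179 CPM in the young livers, against 1384, 1480, 1017 and 1336 CPM in old livers. Old 1, 2 and 4 were above all young livers and old 3 below them (log2 0.10 ± 0.13, adjusted p = 0.716, and -0.07 with library totals only). Atp5a1, the alpha subunit, lay at 675 to 748 CPM in the young livers, against 674, 762, 560 and 678 CPM in old 1 to 4 (log2 -0.07). The gamma, delta and epsilon genes of the central stalk, Atp5c1, Atp5d and Atp5e, had log2 fold changes of 0.03, 0.07 and 0.32. Atp5e reached 154 CPM in old 1, while the other 8 libraries gave 72.4 to 89.5 CPM, and its estimate was 0.01 without old 1.

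Subunits of the side stalk and the membrane base gave log2 fold changes from 0.04 to 0.34, and from -0.18 to 0.02 without old 1. Atp5o, for the protein that confers oligomycin sensitivity, lay at 94.7 to 116 CPM in the young livers, against 164, 108, 79.1 and 116 CPM in old 1 to 4 (log2 0.11). Atp5h, Atp5j, Atp5j2, Atp5i and Atp5l had log2 fold changes of 0.22, 0.20, 0.34, 0.29 and 0.04. Each was highest in old 1 and lowest in old 3.

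Atp5g1, Atp5g2 and Atp5g3 encode the same mature c subunit with different import sequences. Atp5g1 lay at 43.9, 38.5, 46.9, 54.2 and 44.5 CPM in the young livers, against 104, 63.6, 46.2 and 51.0 CPM in old livers. Old 1 and old 2 were above the young range and old 3 and old 4 inside it (log2 0.54 ± 0.22, 95% interval 0.05 to 1.02, adjusted p = 0.271, and 0.23 without old 1). Atp5g2 lay at 122, 133, 130, 145 and 150 CPM in the young livers, against 235, 157, 117 and 138 CPM in old livers (log2 0.25 ± 0.18, adjusted p = 0.515, and 0.02 without old 1). Atp5g3 lay at 229, 215, 232, 258 and 228 CPM in the young livers, against 294, 213, 197 and 201 CPM in old livers. Old 1 was above and the other 3 old livers were below all young ones (log2 -0.04 ± 0.13, adjusted p = 0.901, and -0.19 without old 1). These are near-copies with pseudogenes, and how reads that match several genes were counted is not given in the sources used here, so their counts are uncertain.

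A ratio of these genes within a library does not depend on library scaling. The log2 ratio of Atp5g1 to Atp5g3 was -2.39, -2.48, -2.31, -2.25 and -2.36 in young 1 to 5 and -1.50, -1.74, -2.09 and -1.98 in old 1 to 4. All 4 old livers were above all 5 young ones, by 0.53 on average, and by 0.42 without old 1. The ratio of Atp5g1 to Atp5g2 was on average 0.27 higher in old livers and that of Atp5g2 to Atp5g3 0.26 higher, with overlap of the groups in both. These ratios were chosen with the levels of the genes known, so they are given as a description with no test.

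**Figure D5:**
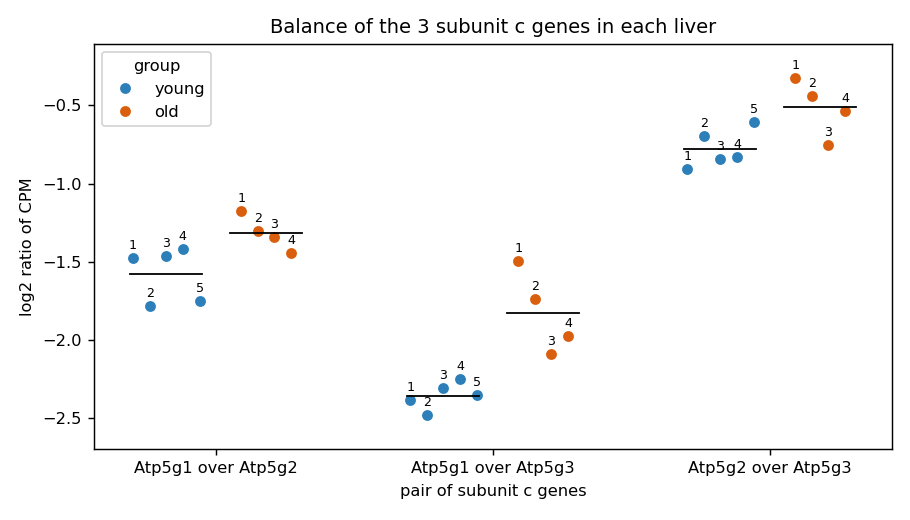
Log2 ratio of CPM (y axis) for the 3 pairs of subunit c genes (x axis) in each animal (points, numbered by replicate; blue young, orange old), with group means as lines. For Atp5g1 over Atp5g3 the old livers lie between -2.09 and -1.50 and the young livers between -2.48 and -2.25.

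The promoters of the 3 genes are shown beside those ratios, from the same RefSeq source and with the same capitals.

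Atp5g1, chr10:81523296-81523595, minus strand: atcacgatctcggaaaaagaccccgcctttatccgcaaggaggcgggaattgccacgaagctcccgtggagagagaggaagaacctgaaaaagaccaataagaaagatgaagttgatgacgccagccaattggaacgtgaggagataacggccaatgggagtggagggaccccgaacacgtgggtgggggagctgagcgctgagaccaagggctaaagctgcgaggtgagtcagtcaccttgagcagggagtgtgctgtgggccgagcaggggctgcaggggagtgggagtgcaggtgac

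Atp5g2, chr7:135678169-135678468, minus strand: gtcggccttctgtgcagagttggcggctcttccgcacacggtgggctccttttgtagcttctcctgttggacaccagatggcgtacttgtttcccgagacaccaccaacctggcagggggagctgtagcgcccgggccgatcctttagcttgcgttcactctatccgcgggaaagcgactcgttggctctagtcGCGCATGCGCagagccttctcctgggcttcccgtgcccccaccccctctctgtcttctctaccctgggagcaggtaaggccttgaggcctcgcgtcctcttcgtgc

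Atp5g3, chr3:79220615-79220914, minus strand: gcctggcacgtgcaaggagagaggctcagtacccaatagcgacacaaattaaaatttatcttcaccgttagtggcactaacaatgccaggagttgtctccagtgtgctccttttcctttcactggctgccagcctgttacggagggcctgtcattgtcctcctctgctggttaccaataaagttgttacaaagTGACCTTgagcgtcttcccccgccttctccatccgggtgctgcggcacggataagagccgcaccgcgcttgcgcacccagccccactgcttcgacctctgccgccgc

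Atp5g1 held none of the 3 sets of letters, Atp5g2 held the NRF1 letters in 2 overlapping matches, and Atp5g3 held the receptor letters once, 57 bases before the start.

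Several genes matched the symbols without encoding a counted subunit. RefSeq names Atp5sl as Dmac2, a protein that helps assemble complex I, and Atp5s as Dmac2l, its relative, and lists Atp5hl1 as a pseudogene. Atp5sl lay at 15.7, 15.5, 15.6, 17.8 and 17.95 CPM in the young livers, against 24.8, 20.4, 17.2 and 19.1 CPM in old livers. Old 1, 2 and 4 were above the young range and old 3 inside it (log2 0.31 ± 0.12, 95% interval 0.05 to 0.56, adjusted p = 0.245). Atp5s had its lowest value in old 1, at 2.54 CPM, against 3.90 to 5.37 CPM elsewhere. Atp5f1, the b subunit of the side stalk, had only 2 to 10 counts in any library, Cox7a2l2 2 to 18 and Atp5hl1 0 to 6. Cox6b2, a testis form, had 3, 6, 6, 2 and 1 counts in young and 8, 3, 5 and 3 in old livers. Just inside the minimum of 10 counts were Atp5hl1 and Cox4i2 with 24 counts each, and outside it were Cox7a2 with 1 count and Cox7b2 and Cox8c with 0. Cox7a2 and Atp5f1 encode forms that liver mitochondria are known to use, and how reads shared between copies were counted is not given in the sources used here, so their low counts are not read as low expression. The 6 genes too low to test had adjusted p-values of 0.122 to 0.988 without the filter.

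Genes that build or control these complexes gave no call either. Of 32 tested assembly and copper delivery factors 0 passed in either direction and the median log2 fold change was 0.08. An unadjusted p under 0.05 was found for 4 of the 32, against 15.9% of all genes. Summed, the listed factors lay at 761 to 779 CPM in the young livers, against 874, 812, 698 and 743 CPM in old 1 to 4. As for the subunit genes, old 1 was the highest library and old 3 the lowest, though single factors differed. Cox17, which carries copper towards complex IV, lay at 24.6, 26.4, 25.6, 25.1 and 24.0 CPM in the young livers, against 49.0, 31.9, 29.3 and 26.9 CPM in old livers (log2 0.45 ± 0.16, adjusted p = 0.213). Every old liver was above every young one with TMM scaling, but not with library totals. Of these factors 2, Cox17 and Cox20, had old above young without overlap with TMM scaling, as did 3.4% of all genes. The estimates of Cmc2 and Cox20, also involved in complex IV assembly, were 0.54 and 0.35 (log2, adjusted p = 0.190 and 0.306). Lrpprc, which stabilises mitochondrial messenger RNAs, lay at 142 to 160 CPM in the young livers, against 93.1, 145, 102 and 122 CPM in old livers (log2 -0.37 ± 0.13, adjusted p = 0.207). The ATP synthase inhibitor Atpif1 had a log2 fold change of 0.09, and Usmg5, a small membrane subunit, one of 0.31.

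Of 17 tested regulators of mitochondrial gene expression 0 passed and the median was -0.08. For 4 of the 17 the unadjusted p was under 0.05, against 15.9% of all genes. With TMM scaling 1 of the 17, Ppargc1a, was higher in old livers without overlap, as were 3.4% of all genes. Likewise 1, Esrrg, was lower without overlap, as were 3.12% of all genes. With library totals only, 10.3% of all genes were lower without overlap. Ppargc1a, the coactivator PGC-1alpha, lay at 1.26, 1.56, 1.32, 0.923 and 0.923 CPM in the young livers, against 1.83, 2.59, 2.45 and 3.53 CPM in old livers. Every old liver was above every young one with TMM scaling but not with library totals (log2 1.11 ± 0.26, adjusted p = 0.0729). Esrrg, an oestrogen-related receptor, lay at 20.8, 26.02, 20.9, 19.7 and 21.7 CPM in the young livers, against 12.9, 10.2, 17.5 and 15.3 CPM in old livers, every old below every young liver on both scales (log2 -0.64 ± 0.15, adjusted p = 0.0856). Ppargc1b, the related coactivator PGC-1beta, lay at 2.63, 2.90, 1.89, 2.92 and 1.33 CPM in the young livers, against 0.494, 1.09, 1.29 and 2.05 CPM in old livers, with overlap (log2 -0.93 ± 0.39, adjusted p = 0.284). The estimate of Polg, the mitochondrial DNA polymerase, was -0.48 (log2, adjusted p = 0.207). Nrf1, Gabpa and Tfam, known regulators of respiratory genes or of mitochondrial DNA, had log2 fold changes of 0.01, -0.12 and 0.04.

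Of 31 tested genes of the citrate cycle and of mitochondrial mass 0 passed and the median was 0.08. For 5 of the 31 the unadjusted p was under 0.05, against 15.9% of all genes. Slc25a4, the muscle form of the ADP/ATP carrier, stood at -0.62 (log2, adjusted p = 0.209). For this gene young 1, at 5.26 CPM, fell within the old range of 3.67 to 6.33 CPM. Young 2 to 5, which carried the heart muscle markers, were higher, at 7.91 to 10.3 CPM. Whether heart transcripts account for the lower Slc25a4 of old livers was not tested. Pdhb, of pyruvate dehydrogenase, stood at -0.34 (adjusted p = 0.210) and Idh2, an NADP-linked dehydrogenase, at 0.53 (0.221). Mdh2, the malate dehydrogenase of mitochondria, and Tomm40, an import channel, were at 0.28 and 0.32 (0.293 and 0.244). Summed, these genes lay at 3507 to 3686 CPM in the young livers, against 3733, 3956, 3265 and 3948 CPM in old 1 to 4, so that old 3 was again the lowest library while old 2 and old 4, not old 1, were the highest.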

How the data were processed

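Poly(A) RNA from 9 livers was purified with Qiagen RNeasy and made into libraries with Illumina's TruSeq RNA v2 kit, per the labels' protocols; this kit does not mark strand. Reads were aligned with BWA, per the submitters' processing notes; its version, the genome build, the annotation and the counter are not given in the sources used here. The authors deposited a table of whole-number read counts per gene symbol.

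The members and the lists were chosen with earlier results of these data known. The counts as deposited were filtered with filterByExpr (minimum count 10), scaled with TMM and fitted over all genes with edgeR 4.0.16 (robust quasi-likelihood test, Benjamini-Hochberg adjustment, threshold 0.05) in R 4.3.3. The fit was checked on simulated data. Genes given with every library were any called gene, the 2 tested genes with the smallest p and the highest mean CPM in each of complexes II to V, and the isoform sets with a known tissue pattern. Alternatives were other scalings and filters, DESeq2 1.42.0, limma-voom 3.58.1, a replicate block, and libraries left out. Leaving out old 1 and old 3 together was chosen after seeing the data. Exact intervals of pooled counts came from scipy 1.17.1. Replicate numbers are the labels' own, and residuals of libraries with the same number had correlations of -0.0976, 0.096, 0.315 and -0.167, so they were not taken as pairs. Libraries are separate animals, 5 and 4 per group, so p-values cover the spread among these animals only.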

Additional observations from a re-analysis of the deposited data

Results flagged for a closer look

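Among 50 groups of values, 3 had an animal far from the rest of its group by Dixon's test at the 95% level. Chance gives about 1 in 20 of the groups tested. Some of the 50 were too near the floor and were not tested. These were Cox4i2 and Cox6b2 in young and in old livers, and Cox6a2 and Cox8b in old livers. Atp5g3 lay at 294.18 CPM in old 1, and the nearest old liver lay at 212.75 CPM. Sdha lay at 359.4 CPM in young 4, and the nearest young liver lay at 336.22 CPM. Cycs lay at 6.873 CPM in young 5, and the nearest young liver lay at 9.4272 CPM.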

How the results depend on the processing

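The fit without young 2 to 5 together kept 1 young library, so only its median log2 fold change, 0.22, is given. Over the other alternatives, 0 genes of complexes II to V were called higher. At most 1, Cox6a2, was called lower. It was called with library totals only, by DESeq2 and, of the fits leaving out single libraries, without young 1. Cox6a2 dropped out of the fit when any of young 2 to 5 was left out. With the replicate block 0 were called and the median log2 fold change was 0.07, while calls over all genes went from 84 higher and 44 lower to 27 and 16; by DESeq2 they were 386 and 269. The median moved to 0.31 without old 3 and old 4 together. With library totals only the sign turned for 15 of the 40 genes, all from above 0 to below, among them these of the 19 genes given in full: Atp5b (-0.0716), Cox4i1 (-0.11), Cox6a1 (-0.11), Cox7a2l (-0.0711) and Cox8a (-0.0945). Without old 1 and old 3 together it turned for 8 genes, among them Cox4i1 (-0.0071), Cox6a1 (-0.0714) and Uqcrc2 (0.0563), and without old 3 and old 4 together for 6, among them Atp5g3 (0.12). Without old 1 it turned for 17 genes, 16 of them to below 0. Leaving out each library gave -0.14 to 0.22 for Cox4i1, -0.17 to 0.21 for Cox6a1, -0.0904 to 0.20 for Cox8a and -0.19 to 0.0205 for Atp5g3. None of these passed the threshold, and the cause was not tested. With 5 and 4 animals, what could be detected is limited. For the 39 genes of at least 1 CPM the 95% intervals reached 0.22 to 0.49 (log2) to either side of the estimate.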
